A study of Mus musculus with 495 samples.

Results

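Polyhormonal cells of the embryonic mouse pancreas, in which transcripts of 2 of the 5 islet hormones were abundant at once, were compared with cells in which 1 hormone was abundant. The cells were chosen by their hormone levels: a hormone counted as present at 1000 CPM or more, CPM being the counts of a gene per 1000000 counts of the cell, with Ins1 and Ins2 added together and Gcg, Sst, Ppy and Ghrl taken singly. Wells in rows D and H of EA01, EA02 and EA03 were left out, which kept 480 of the 495 cells. Of these, 25 were polyhormonal, 15 at E15.5 and 10 at E17.5 (embryonic days), and 74 cells of E15.5 and 43 of E17.5 held 1 hormone, while 338 cells held none. Because the hormones chose the cells, their levels are a description and support nothing else.

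The study sequenced single cells of embryonic mouse pancreas with Smart-seq2, a full-length RNA method with 1 cell per well and no molecular identifiers. At E15.5 the plates EA01 and EA03 (67 cells kept in each) carried the code Neurog3, EA02 and EA05 (66 and 85 cells) the code endocrine, and EA04 (66 cells) the code duct, all of the genotype Neurog3-eGFP, in which the reporter sits in the Neurog3 gene. At E17.5 the plates EA06 and EA07 (57 and 72 cells) had the genotype Neurog3-Cre, Rosa-mTmG, in which Neurog3 drives Cre and a membrane reporter changes colour in cells that have made it. Both genotypes thus mark cells through Neurog3. No animal, litter or culture is named in the labels, so each group is 1 sample, no test between groups was possible, and day and strain cannot be told apart. Intervals are 95% exact intervals that cover counting error only, since copies made by PCR are counted as reads.

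Islet hormones are made by 5 cell types: beta cells make insulin from Ins1 and Ins2, alpha cells glucagon from Gcg, delta cells somatostatin from Sst, PP cells pancreatic polypeptide from Ppy, and epsilon cells ghrelin from Ghrl. All arise from progenitors that transiently make the transcription factor Neurog3. The lineages are set apart by further factors, among them Irx2 in alpha cells, Hhex in delta cells, and Pdx1 and Nkx6-1 in beta cells, and cells with more than 1 hormone are known from the embryonic pancreas.

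The hormone genes lie at separate places in the genome. Ppy lies at chr11:102099930-102101319 and its relative Pyy, the gene of peptide YY, at chr11:102106676-102107832, both on the minus strand (GRCm38, GENCODE M21). Gcg lies at chr2:62474530-62483650, Sst at chr16:23889573-23890958 and Ghrl at chr6:113716119-113719880, also on the minus strand, and Ins1 at chr19:52264297-52265476 on the plus strand. The longest stretch that protein-coding transcripts of Ins1 and Ins2 shared was 56 bases, and these were counted as 1 hormone. Ppy and Pyy shared at most 10 bases and no other pair more than 11. Ghrl overlaps 2 further gene models, Gm26982 and Gm44033, and reads of overlapping genes cannot be told apart without strand.

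The promoter stretches of the genes that met most often in the polyhormonal cells, and of Pyy, are shown because these genes were read together in single cells. They are the 250 bases before the RefSeq start of Ppy (chr11:102101320-102101569), Gcg (chr2:62483654-62483903) and Pyy (chr11:102107833-102108082), and for Sst the 30 bases from -59 to -30 (chr16:23890874-23890903), all on the minus strand of GRCm38.p6 and written 5′ to 3′. Capitals mark matches to TAAT on either strand, the core letters that homeodomain factors such as Pdx1 and Isl1 read, and to TGACGTCA, the cyclic AMP response element.
Ppy: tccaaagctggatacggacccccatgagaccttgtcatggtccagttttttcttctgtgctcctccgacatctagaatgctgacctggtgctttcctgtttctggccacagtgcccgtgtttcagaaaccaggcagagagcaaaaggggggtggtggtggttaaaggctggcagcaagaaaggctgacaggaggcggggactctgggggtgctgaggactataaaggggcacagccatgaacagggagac
Gcg: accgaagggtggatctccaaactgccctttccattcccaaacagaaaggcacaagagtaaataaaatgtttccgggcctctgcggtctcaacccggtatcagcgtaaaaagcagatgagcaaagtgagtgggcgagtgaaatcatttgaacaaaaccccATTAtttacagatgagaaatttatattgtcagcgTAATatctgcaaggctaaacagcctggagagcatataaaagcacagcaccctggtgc
Pyy: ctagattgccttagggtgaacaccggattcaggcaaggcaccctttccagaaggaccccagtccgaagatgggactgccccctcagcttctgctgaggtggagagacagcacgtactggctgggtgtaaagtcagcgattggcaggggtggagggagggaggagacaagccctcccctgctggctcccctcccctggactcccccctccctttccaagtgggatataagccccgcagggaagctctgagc
Sst: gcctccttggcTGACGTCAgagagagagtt
The stretch of Sst is shorter because the GENCODE gene begins upstream of the RefSeq start. In the 250 bases before their starts Gcg held 2 matches to TAAT and Sst held 1, and the letters were not found in the windows of Ppy and Pyy. TGACGTCA was found before Sst and not in the other 3 windows. TAAT occurs in 54.9% of the 32851 RefSeq promoter windows of this length and TGACGTCA in 1.55%, so a match to TAAT is common. These matches describe letters and are not evidence of binding.

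Polyhormonal cells made up 17.6% (11.7% to 24.9%) of the hormone-positive cells. At E15.5 they were 15 of 89, or 16.9% (9.75% to 26.3%), and at E17.5 they were 10 of 53, or 18.9% (9.44% to 31.97%), so the intervals of the 2 days overlap. Within E15.5 the share was 13 of 61 (21.3%, 11.9% to 33.7%) in the endocrine plates and 2 of 28 (7.14%, 0.877% to 23.5%) in the Neurog3 plates. These intervals overlap. The duct plate EA04 held no hormone-positive cell among 66.

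By plate, polyhormonal cells were 1 of 14 hormone-positive cells in EA01, 2 of 11 in EA02, 1 of 14 in EA03, 11 of 50 in EA05, 6 of 28 in EA06 and 4 of 25 in EA07. Every plate with hormone-positive cells thus held at least 1. Plates EA01 to EA03 together held 4 of their 39 (10.3%, 2.87% to 24.2%), and plates EA05 to EA07 held 21 (20.4%, 13.1% to 29.5%). The plot of the share by plate shows how wide the intervals were for single plates. Plate EA05, which carried 11 of the 25 cells, had the highest share at 22% (11.5% to 35.96%), and without EA05 the share was 15.2%.

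**Figure D1:**
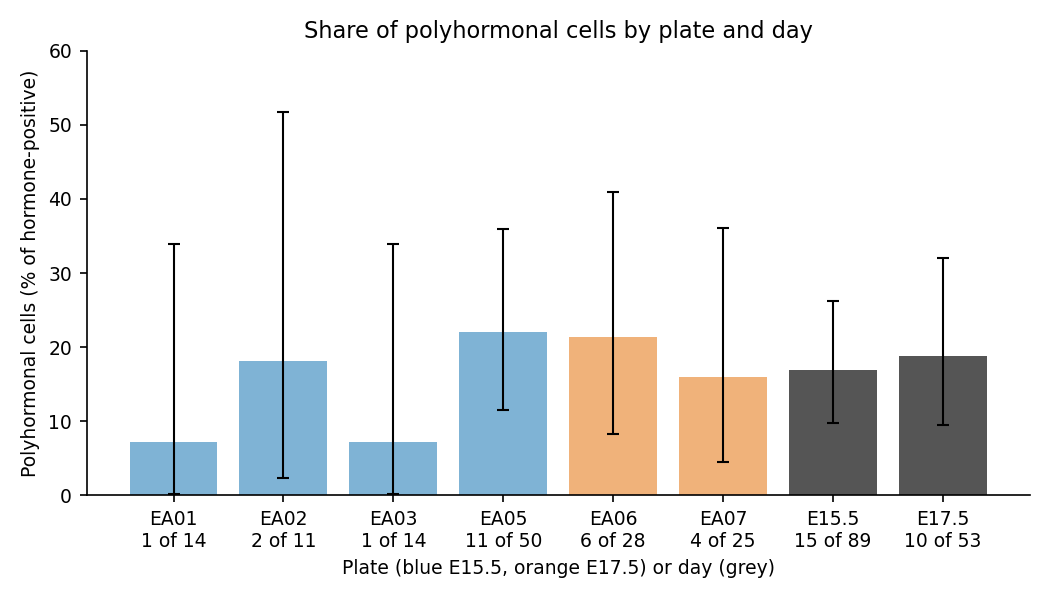
Share of polyhormonal cells among hormone-positive cells (percent, y axis) as bars for each plate with hormone-positive cells and for each day (x axis), with exact binomial 95% intervals as lines. The plate shares run from 7.14% in EA01 and EA03 to 22% in EA05, and all intervals overlap.

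Of the 10 possible pairs 8 were found, and no cell held 3 hormones. Gcg with Ppy and Sst with Ppy were the most frequent, with 6 cells each, and each of these 2 pairs occurred on 4 plates and on both days, 3 cells at E15.5 and 3 at E17.5. Gcg with Ghrl followed with 4 cells on 3 plates and Ins with Sst with 3 cells on 2 plates. Ins with Gcg and Ins with Ppy were each seen in 2 cells, and Sst with Ghrl and Ppy with Ghrl in 1 cell each. Ins with Ghrl and Gcg with Sst were not found. Ppy was one of the hormones in 15 of the 25 cells.

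How often each hormone came with a partner is a description, since the hormone levels chose the cells. Ppy was found with another hormone in 15 of its 23 cells (65.2%, 42.7% to 83.6%) and Gcg in 12 of 23 (52.2%, 30.6% to 73.2%). Sst came with a partner in 10 of 29 cells (34.5%, 17.9% to 54.3%), Ghrl in 6 of 31 (19.4%, 7.45% to 37.5%) and Ins in 7 of 61 (11.5%, 4.74% to 22.2%).

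In the 6 cells with Gcg and Ppy, glucagon transcripts ranged from 2774 over a median of 16266 to 43787 CPM and Ppy from 1452 over 5087 to 15434 CPM. Gcg was the higher of the 2 in 4 cells. In well B7 of EA06 the pair was nearly even, with Gcg at 8517 and Ppy at 8761 CPM. The 8 cells with Ppy alone held 1120 to 6731 CPM (median 2371 CPM) of it, so the ranges overlap, and the highest cell of the pair, well G5 of EA06, lay above them.

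In the 6 cells with Sst and Ppy, Sst ranged from 1980 over a median of 13309 to 49321 CPM and Ppy from 1762 over 5290 to 13233 CPM. Sst led in 4 cells and Ppy in 2. The lower hormone stood at a median of 57.97% of the higher one in this pair, and at 98.3% in well F10 of EA07, with 2245 CPM of Sst and 2283 CPM of Ppy. The pair therefore included cells with 2 hormones at like levels as well as well D2 of EA07, where Ppy (1762 CPM) was a small part beside Sst (49321 CPM).

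Gcg with Ghrl gave the highest lower hormone of all 25 cells. Well A4 of EA05 held 19152 CPM of Gcg and 21532 CPM of Ghrl. Well H8 of EA06 held 52889 CPM of Gcg and 11959 CPM of Ghrl, well F1 of EA05 1573 CPM of Gcg and 6690 CPM of Ghrl, and well E4 of EA03 14231 CPM of Gcg and 1469 CPM of Ghrl. Either hormone could thus lead, in 2 cells each.

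Pairs with insulin were mostly led by insulin. The 2 cells with Ppy held 60555 CPM of Ins and 2198 CPM of Ppy (EA02 C11) and 44143 CPM of Ins and 1197 CPM of Ppy (EA05 E4), so Ppy stayed below 4% of Ins in both. The 3 cells with Sst held 28347 CPM of Ins and 3369 CPM of Sst (EA05 E10), 13922 and 1384 CPM (EA05 D12), and 5987 and 18696 CPM (EA06 E12), the last of which was led by Sst. The 2 cells with Gcg went opposite ways, with 27835 CPM of Ins and 2668 CPM of Gcg in EA05 C10 and 1327 CPM of Ins and 20178 CPM of Gcg in EA05 G6. The remaining 2 cells were EA06 B6, with 29828 CPM of Sst and 2164 CPM of Ghrl, and EA07 G6, with 2190 CPM of Ppy and 2586 CPM of Ghrl.

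**Figure D2:**
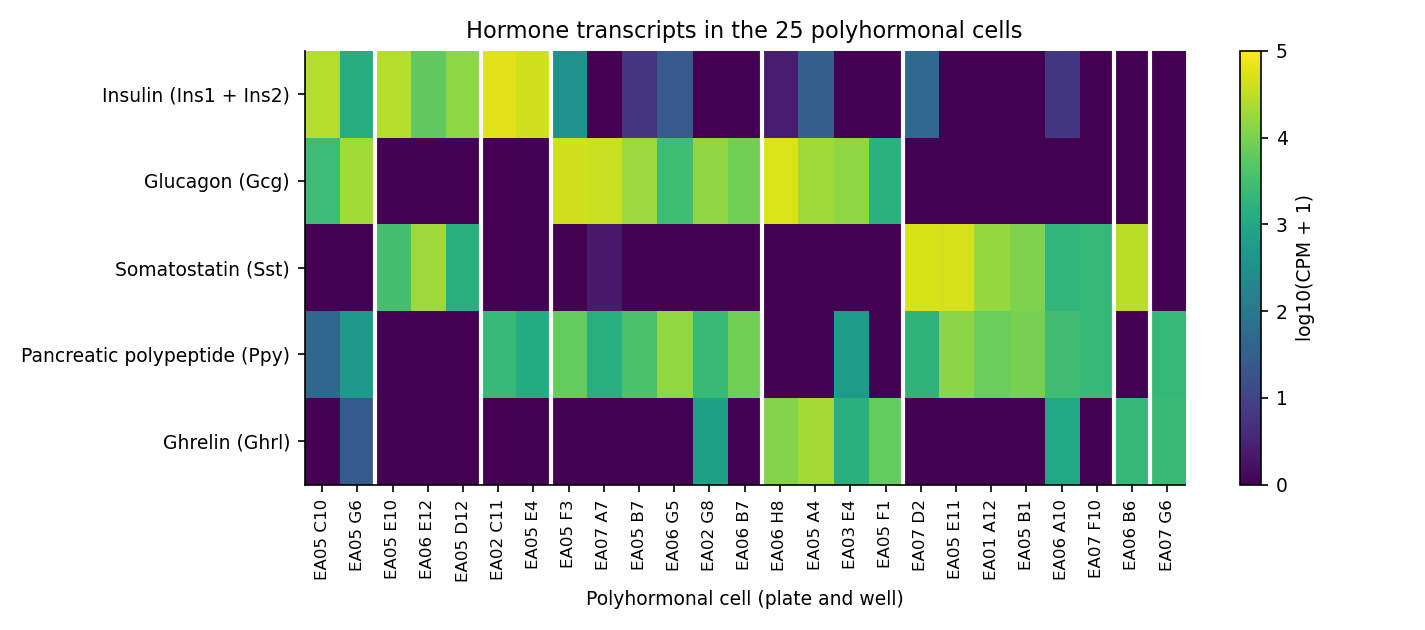
Level of each of the 5 hormones (rows) in each of the 25 polyhormonal cells (columns, by plate and well, with white lines between hormone pairs), as colour on a log10(CPM + 1) scale. Each column has 2 hormones at 1000 CPM or more, drawn green to yellow, and the other 3 are mostly near 0, drawn dark.

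Across the 25 cells the lower hormone of the pair stood at 2.71% of the leading one at the lowest, 17.97% at the median and 98.3% at the highest. It reached 10% of the leading hormone in 17 cells and 50% in 6. A hormone outside the pair stood under 1 CPM in 13 cells and at 200 CPM or more in 5, with a maximum of 939 CPM. Most polyhormonal cells therefore held 2 hormones and little of any other.

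In the single-hormone cells the next hormone was at 0 counts in 52 and below 10 CPM in 64, with a median of 2.91 CPM. It stood between 100 and 1000 CPM in 37 cells, between 200 and 1000 CPM in 28 and between 500 and 1000 CPM in 13, so the levels ran on up to the threshold with no gap. The 3 cells just outside held 988 CPM (EA05 G10), 967 CPM (EA07 E9) and 953 CPM (EA05 G7) of their next hormone, and the 3 just inside 1197 CPM (EA05 E4), 1327 CPM (EA05 G6) and 1384 CPM (EA05 D12). In 8 of the 25 polyhormonal cells the lower hormone was under 2000 CPM. The share moved with the threshold: it was 31.8% (55 polyhormonal cells) at 200 CPM, 26% (39 cells) at 500 CPM, 12.7% (17 cells) at 2000 CPM and 7.14% (8 cells) at 5000 CPM.

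**Figure D3:**
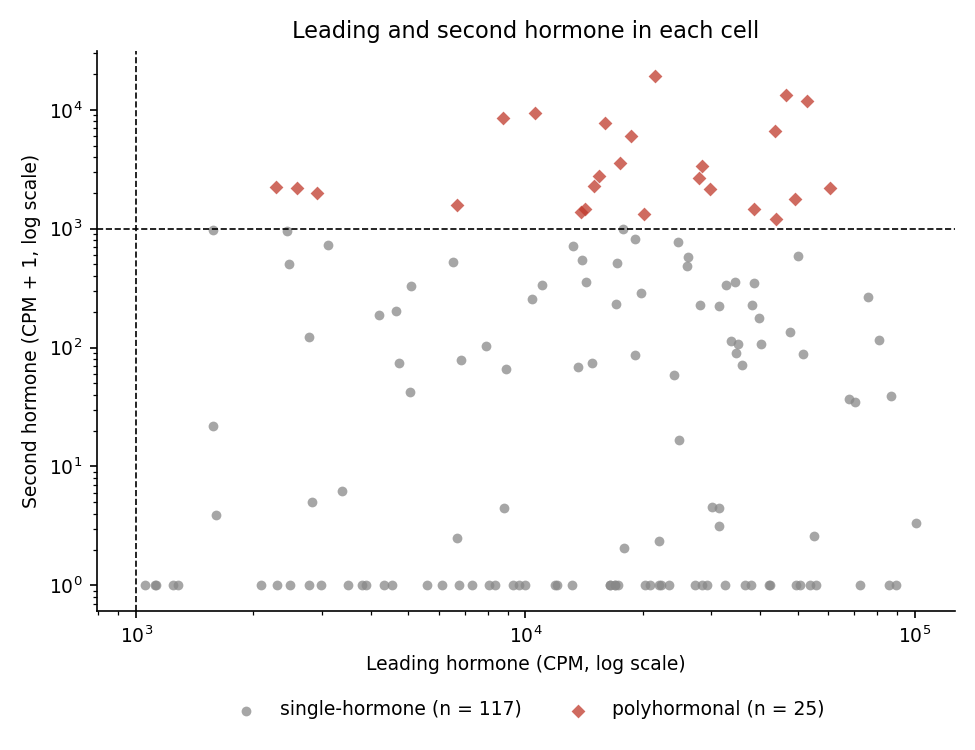
Level of the leading hormone (x axis, CPM, log scale) against the next highest hormone (y axis, CPM + 1, log scale) in 25 polyhormonal cells (diamonds) and the single-hormone cells (circles), with dashed lines at 1000 CPM. The diamonds run from 1197 to 19152 CPM on the y axis, and circles lie just below the horizontal line up to 988 CPM.

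Background of hormone transcripts in other cells was low for most hormones. Among single-hormone cells of other kinds, Ghrl was at 0 counts in 94.6%, Gcg in 91.5%, Sst in 84.7%, Ppy in 67.9% and Ins in 58.7%. Ins and Ppy were thus the hormones most often read at low levels outside their own cells. Among the 13 polyhormonal cells without Gcg all 13 were at 0 Gcg counts. Of the 338 cells with no hormone at the threshold, 258 were at 0 counts of Ins, 318 of Gcg, 325 of Sst, 316 of Ppy and 322 of Ghrl.

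Counts and genes per cell overlapped widely between the classes. Counts per cell were 429844 at the lowest, 628188 at the median and 900242 at the highest in polyhormonal cells, and 203983, 599446 and 1096693 in single-hormone cells. After each cell was thinned to 200000 counts, polyhormonal cells held 1713 to 4395 genes (median 2728) and single-hormone cells 1829 to 5094 (median 2804). Within plates the medians were 2728 against 2870 genes in EA05, 2160 against 2291 in EA06 and 3829 against 3914 in EA07. After thinning, EA06 G5 held 4395 genes, against up to 2982 in single-hormone cells of EA06. EA03 E4 held 4228, against up to 3809 in those of EA03. Both wells held markers of other cell types, given below. The other polyhormonal cells lay no higher in genes than the single-hormone cells of their plates. In counts, EA06 G5 (900242) and EA01 A12 (730426) lay above those of their plates. Hormones took a median of 2.37% of all counts in polyhormonal and 1.73% in single-hormone cells. Wells that could hold 2 cells were not called, and their part in the pairs was not tested.

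Lineage factors differed between the 2 most frequent pairs. Hhex, the delta cell factor, was at 10 CPM or more in 6 of 6 cells with Sst and Ppy, at 1221 to 3456 CPM (median 2633 CPM), and in 17 of 19 cells with Sst alone, at 0 to 7043 CPM (median 1437 CPM). In those 6 cells Irx2, an alpha cell factor, was at 0 counts. In the 8 cells with Ppy alone, Hhex was at 10 CPM or more in 4.

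The 6 cells with Gcg and Ppy mostly lacked Hhex. Irx2 was at 10 CPM or more in 4 of 6 (0 to 767 CPM, median 46.3 CPM), against 6 of 11 in cells with Gcg alone (0 to 705 CPM). Hhex was read at 168 CPM in 1 of these 6 cells, the well EA06 G5, and was at 0 in the 11 cells with Gcg alone. So the cells with Ppy as a partner carried Hhex in 6 of 6 and Irx2 in 0 of 6 where Sst was the other hormone, and Hhex in 1 of 6 and Irx2 in 4 of 6 where it was Gcg.

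The 4 cells with Gcg and Ghrl had Irx2 at 150, 0, 165 and 614 CPM in EA03 E4, EA05 A4, EA05 F1 and EA06 H8. Irx2 was thus read in 3 of the 4, and Hhex was at 0 in all 4. Pou3f4, another alpha cell factor, was read at 455, 415 and 361 CPM in EA03 E4, EA05 F1 and EA06 H8. In the cells with Gcg and Ppy, Pou3f4 was at 785 CPM in EA05 F3 and 261 CPM in EA07 A7, and under 10 CPM in the rest. In the 25 cells with Ghrl alone, Irx2 was at 10 CPM or more in 8, Pou3f4 in 5 and Hhex in 2.

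In the pairs with insulin, both cells with Ins and Ppy held 2 of the beta cell factors, Pdx1 at 17.53 and 125.8 CPM and Nkx6-1 at 187 and 302 CPM in EA02 C11 and EA05 E4. Pax4 and Mafa, also beta cell factors, and Irx2 and Hhex were at 0 in both. Both cells with Ins and Gcg carried Irx2, at 121.3 and 347 CPM in EA05 C10 and EA05 G6, with Pdx1 at 0. In EA05 C10, where insulin led, Pax4 was at 332 CPM and Nkx6-1 at 183 CPM, and in EA05 G6, where glucagon led, they were at 1.34 and 6.70 CPM. Of the 3 cells with Ins and Sst, Hhex was read at 2156 CPM in EA06 E12, the cell led by Sst, and at 0 in the 2 led by Ins. In the 54 cells with Ins alone, Pdx1 and Nkx6-1 were each at 10 CPM or more in 44, Hhex in 1 and Irx2 in none.

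Isl1, a factor of all islet cells, was at 10 CPM or more in 25 of 25 polyhormonal and 94.02% of single-hormone cells. Mafa, a factor of mature beta cells, was read in 1 polyhormonal cell at 105.1 CPM and in 3 single-hormone cells at 10 CPM or more.

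**Figure D4:**
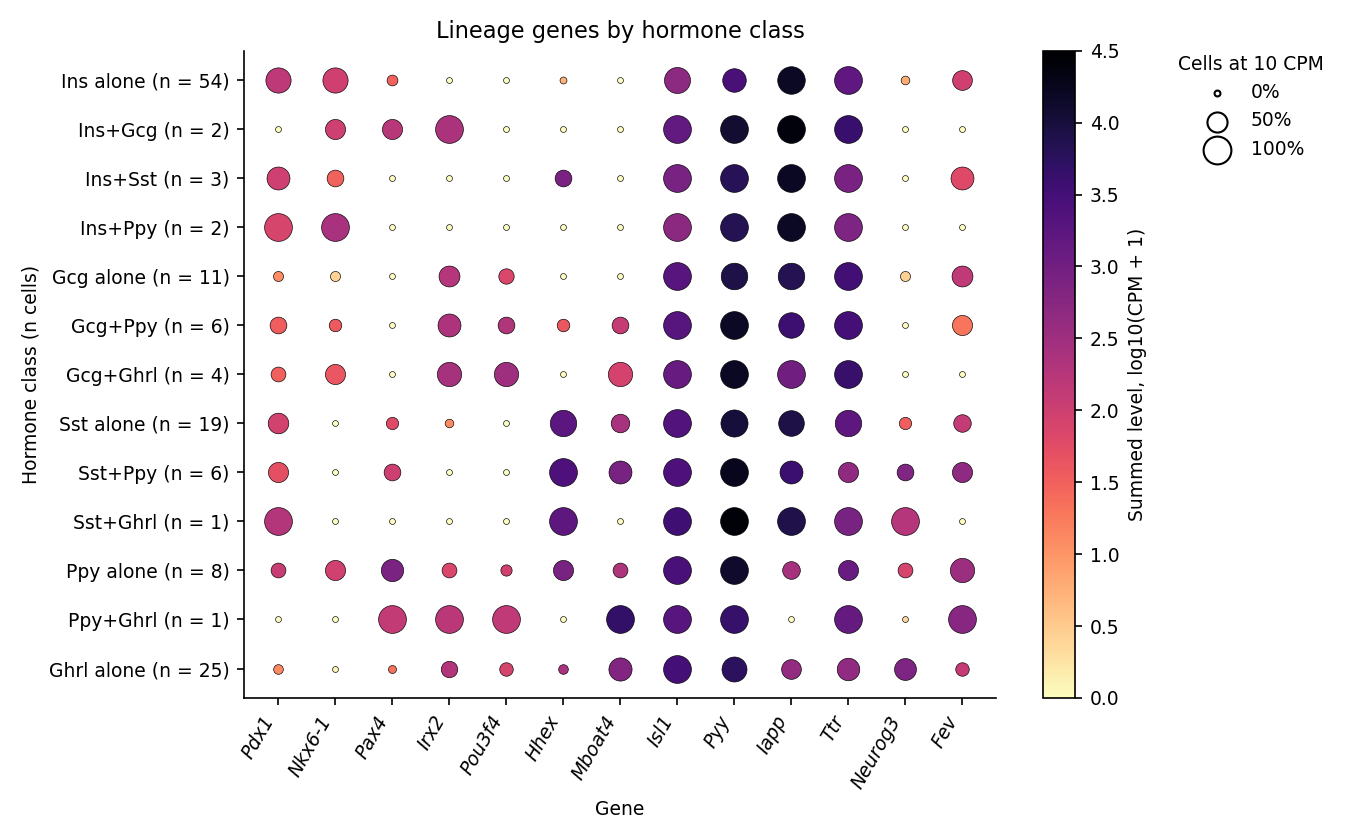
Lineage genes (x axis) in each hormone class (y axis, with its number of cells): dot size gives the percent of cells at 10 CPM or more, and colour the summed level of the class as log10(CPM + 1). Hhex reaches 6 of 6 cells with Sst and Ppy, and Irx2 4 of 6 cells with Gcg and Ppy.

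Pyy, which was not used to choose the cells, was at 1000 CPM or more in 25 of 25 polyhormonal cells (100%, 86.3% to 100%) and in 76 single-hormone cells (64.96%, 55.6% to 73.5%). Levels ran from 2002 over a median of 12605 to 36668 CPM in polyhormonal cells and from 0 over 2396 to 51190 CPM in single-hormone cells. The 2 ranges overlap, and no polyhormonal cell was below 2002 CPM. The share was 15 of 15 against 48 of 74 at E15.5 and 10 of 10 against 28 of 43 at E17.5.

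The share of single-hormone cells with Pyy was lowest among those with Ins. Pyy was at 1000 CPM or more in 25 of 54 with Ins, 9 of 11 with Gcg, 18 of 19 with Sst, 7 of 8 with Ppy and 17 of 25 with Ghrl. Polyhormonal cells had fewer insulin-led members, so the single-hormone cells were also weighted to the leading hormones of the polyhormonal cells, an alternative chosen after seeing the data, which gave 77.1%. This weighting did not match the partner hormone: Ppy was in 15 of the 25 cells and led 4. Among single-hormone classes the Pyy median was highest with Ppy (14907 CPM) and lowest with Ins (808 CPM). The part of the partner hormone in the Pyy difference was not tested. Summed over each class, Pyy stood at 14184 against 5899 CPM, a log2 ratio of 1.27, which was 1.12 at E15.5, 1.48 at E17.5 and 0.82 after weighting. Within a leading hormone the log2 ratio was 1.43 for Ins, 0.60 for Gcg and 0.94 for Sst. These ratios compared 5 polyhormonal with 54 single-hormone cells led by Ins, 7 with 11 led by Gcg and 6 with 19 led by Sst. They were not matched for day or plate. The 5 polyhormonal cells led by Ins were all of E15.5, while the cells with Ins alone came from both days. Iapp, the amylin gene, was at 1000 CPM or more in 16 of 25 polyhormonal and 74 single-hormone cells, or 64% and 63.2%.

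**Figure D5:**
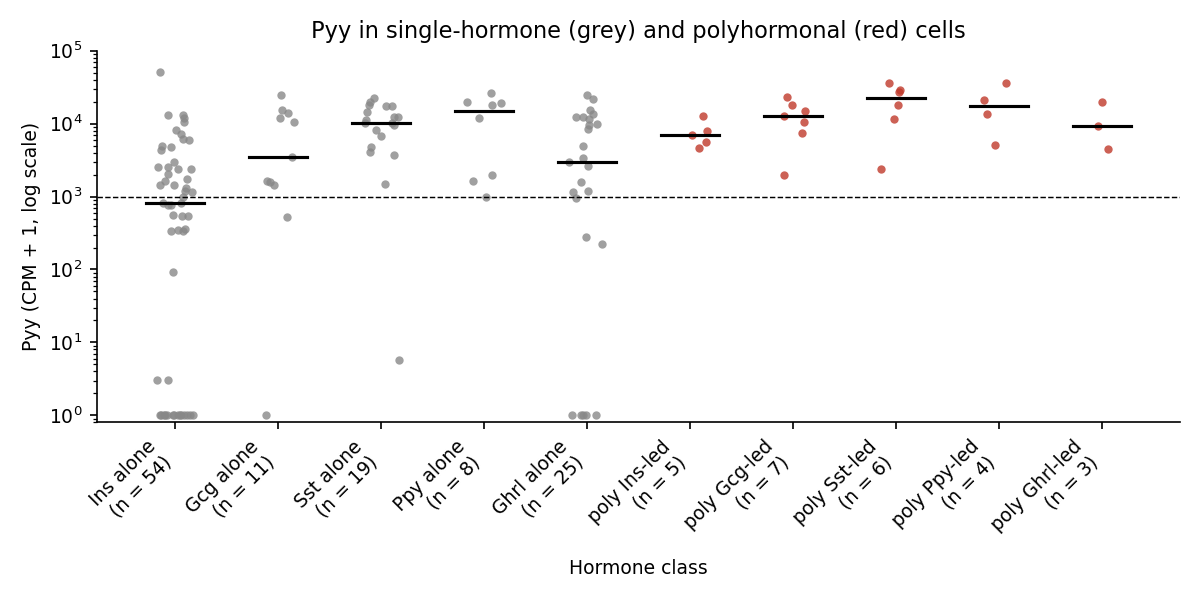
Pyy level of each cell (CPM + 1, log scale, y axis) by hormone class (x axis), with single-hormone classes in grey, polyhormonal cells by their leading hormone in red, a bar at each median and a dashed line at 1000 CPM. All 25 polyhormonal cells lie at 2002 CPM or more, while cells with Ins alone spread from 0 to 51190 CPM.

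Neurog3 was at 20 CPM or more in 3 of 25 polyhormonal cells (12%, 2.55% to 31.2%) and 23 single-hormone cells (19.7%, 12.9% to 28.02%), and the intervals overlap. By day it was 1 of 15 against 3 of 74 at E15.5. At E17.5 it was 2 of 10 (20%, 2.52% to 55.6%) against 20 of 43 (46.5%, 31.2% to 62.3%), a difference that was not tested. The 3 cells were EA01 A12 (1776 CPM), EA07 F10 (1555 CPM) and EA06 B6 (179 CPM), and each of them held Sst. Among single-hormone cells 14 of the 23 held Ghrl. Fev, a factor of endocrine precursors, was at 10 CPM or more in 36% and 42.7% of cells, with summed levels of 152.1 and 126.4 CPM. The polyhormonal sum rested on EA05 B1 at 2544 CPM: the log2 ratio was 0.26, and -0.67 without that cell. Genes of G2 and M phase, read as 3 or more at 20 CPM, were found in 1 cell of each class.

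Summed over cells, 8012 genes stood at 20 CPM or more in at least 1 class, the hormone genes left out. On the log2(CPM + 5) scale 12.1% of them were over 2-fold higher in polyhormonal cells and 13.4% over 2-fold lower, and the median gene was at 0.01. Values given below with no unit are these log2 ratios, polyhormonal over single-hormone. A gene read in a few of the 25 cells can pass 2-fold on such sums. With the single-hormone cells weighted to the same leading hormones, 13.8% were higher and 15% lower. Within plate EA05 alone, with 11 against 39 cells, 47.2% of genes were past 2-fold in either direction.

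The genes named next were those furthest apart among genes that reached 50 CPM in the higher class and 10 CPM in 25% of that class, with the same sign at both days, so their sign at the 2 days is no support. They were read in part of the cells. Setdb1, which encodes a histone methyltransferase, stood at 173 CPM (167 to 180) in polyhormonal and 28.2 CPM (26.95 to 29.4) in single-hormone cells, a log2 ratio of 2.43, and was at 10 CPM or more in 12 of 25 cells (48%) against 21 (17.9%). It was at 1.87 at E15.5 and 3.25 at E17.5, and within a leading hormone at 1.45 for Ins and 3.01 for Sst. Among Gcg-led cells it stood at 184 CPM, against 0 counts in cells with Gcg alone. Aldh3a2, an aldehyde dehydrogenase gene, was at 2.49 (137.9 against 20.4 CPM, in 32% against 7.69% of cells), Parp11 at 2.53 (73.8 against 8.69 CPM, in 28% against 5.98%) and Aifm1, a mitochondrial flavoprotein gene, at 2.23 (119.5 against 21.6 CPM, in 40% against 17.1%). The median cell of either class was at 0 CPM of these last 3. Lgals1 (2.19), Tspan9 (2.12), Tceanc (2.09), Ctdspl (2.03), Pla2g1b (2.03) and Taf1d (2.01) completed the 10 highest by this rule. With the hormone threshold at 5000 CPM, which leaves 8 polyhormonal cells, Aldh3a2 was at -2.78, Tspan9 at -2.71 and Lgals1 at -0.14.

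On the lower side of the same rule, Rpf2, a ribosome assembly gene, stood at 6.55 CPM (5.36 to 7.92) in polyhormonal and 165 CPM (162 to 168) in single-hormone cells, a log2 ratio of -3.88, and was at 10 CPM or more in 3 of 25 cells (12%) against 45 (38.5%). Aldh5a1, which encodes succinate semialdehyde dehydrogenase, had 1 count among all polyhormonal cells or 0.0618 CPM (0.00156 to 0.344), against 66.3 CPM, and was at 10 CPM or more in 25.6% of single-hormone cells. They were at -4.92 and -4.08 at E15.5 and at -3.04 and -3.34 at E17.5, and below 0 within all 3 leading hormones. Among Gcg-led cells 30.6% of genes were higher and 30.2% lower, and among Sst-led cells 22% and 41.5% (63.4% either way), so calls within a leading hormone were common. Mkln1 (-3.08), Wdr43 (-2.98), Anapc10 (-2.76) and Gtf2f1 (-2.67) were also lower within all 3. Sdf2l1 (-3.14), Dnahc9 (-3.09) and Wfs1 (-3.01) were lower in Ins-led and Sst-led cells, whereas in Gcg-led cells they stood at 6.03, 12.5 and 24.6 CPM against 0, 4.03 and 0 CPM with Gcg alone, and Zfp322a was at -3.09.

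Of 8 measured alpha cell factors 3 were over 2-fold higher and 0 lower, where 12.1% of all genes were higher and 13.4% lower, with a list median of 0.44, against 0.01 for all genes. Those 3 were Pou3f4 at 1.58 (99.3 against 29.8 CPM), Etv1 at 1.19 (161 against 67.9 CPM) and Foxa2, a factor of endoderm cells in general, at 1.07 (368 against 172 CPM), whereas Irx2 was at 0.79. Without the highest polyhormonal cell of each gene, Pou3f4 was at 1.06, Etv1 at 0.66 and Foxa2 at 0.86. Etv1 was at 1.01 in Gcg-led cells but at -0.72 in Ins-led and -2.74 in Sst-led cells. Of the factors, 3 of 8 were higher and 0 lower in Gcg-led cells (median 0.91), beside 30.6% and 30.2% of all genes. In Ins-led cells 3 of 6 were higher and 1 lower (median 0.78), beside 18.8% and 35.6% of all genes. In Sst-led cells 2 of 5 were higher and 1 lower (median -0.13), beside 22% and 41.5% of all genes. Of 9 measured alpha cell genes 2 were higher and 0 lower, with a median of 0.37. Tmem27, a membrane protein gene of islet cells, led them at 1.49 (1740 against 616 CPM) and was at 10 CPM or more in 23 of 25 cells (92%) against 70 (59.8%), while Ttr, the transthyretin gene, was at 0.51. After weighting, 1 factor was higher, with a list median of 0.39, and the alpha cell gene median was 0.11, while Tmem27 was at 1.38. By the choice of cells, Gcg was at 1000 CPM or more in 12 of the 25 polyhormonal cells and in 11 single-hormone cells. The weighting matched the leading hormone only. The part of the cells with Gcg in these differences was not tested.

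Of 8 beta cell factors 0 were higher and 1 lower, a share near the background, with a median of -0.44. Nkx2-2, which is needed for beta cells and shared with other islet lineages, was the lower one at -1.35 (37.6 against 103.8 CPM, in 52% against 76.9% of cells). It was below 0 at both days (-1.68 and -0.98) and in cells led by Ins (-3.75), Gcg (-1.44) and Sst (-1.19). Rfx6 was at -0.95, Pdx1 at -0.82, Pax4 at -0.78 and Nkx6-1 at -0.11.

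Of 11 measured genes of beta cell maturation 4 were over 2-fold lower and 0 higher, with a median of -0.85, beside 13.4% lower among all genes. Among them were Ero1lb, an oxidase of the endoplasmic reticulum, at -1.84, the imprinted gene Nnat at -1.36 and the glucose transporter gene Slc2a2 at -1.21. At E15.5 the list median was -0.33, with 2 of 12 lower (21.3% of all genes), and at E17.5 it was -2.74, with 9 of 11 lower (24.1% of all genes). Insulin-led cells were 5 among polyhormonal and 54 among single-hormone cells. At E17.5 no polyhormonal cell was led by insulin, while EA06 and EA07 held 6 and 8 cells with Ins alone. The part of insulin-led cells in the difference was not tested. After weighting, the list median was 0.17 and Slc2a2 was at 0.17. Within insulin-led cells the list median was 0.38, against -0.19 for all genes there, with 3 of 14 higher and 3 lower, where 18.8% of all genes were higher and 35.6% lower. Within Sst-led cells it was -2.27, against -0.40 for all genes, with 7 of 10 lower (41.5% of all genes) and 0 higher. Within Gcg-led cells it was -0.55, with 3 of 7 lower (30.2% of all genes) and 0 higher. The list was thus mostly lower in Sst-led cells, while in Ins-led cells as many members were higher as lower.

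Factors of delta and epsilon cells were mixed, with 1 of 8 higher, 2 lower and a median of -0.08, beside 12.1% higher and 13.4% lower among all genes. Mboat4, which encodes the enzyme that acylates ghrelin, was at 1.23 (483 against 204 CPM), with 4785 CPM in EA07 G6, and at 0.31 without that cell. With Ppy not counted as a hormone it was at -3.06 and Etv1 at -0.11. Hhex was at 0.96 (778 against 398 CPM). Irs4, an insulin receptor substrate gene, had 0 counts in polyhormonal cells and 128.6 CPM in single-hormone cells, which makes it at least 693.5-fold lower with 3 counts over the polyhormonal class as the floor. All of its reads came from cells with Ghrl alone, where 13 of 25 were at 10 CPM or more, and none of the 6 polyhormonal cells with Ghrl had a count (up to 0.952 CPM). Irs4 was read almost wholly at E17.5, at 303 CPM against 2.32 CPM in single-hormone cells of E15.5, and 3 of those 6 polyhormonal cells were of E17.5.

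Of 19 secretory granule genes 1 was higher and 2 lower, shares not above the 12.1% and 13.4% of all genes, with a median of -0.33. At E17.5 1 of 18 was higher and 4 lower, beside 19.7% and 24.1% of all genes. In Ins-led cells 0 of 19 were higher and 6 lower, beside 18.8% and 35.6% of all genes. The lower ones were Pcsk1, a prohormone convertase gene, at -1.15 and Chgb, chromogranin B, at -1.12, and the higher one was Resp18 at 1.19, which was at -0.16 with Ppy not counted as a hormone. Resp18 was at 0.11 at E15.5 and 3.04 at E17.5, at 0.59 without its highest polyhormonal cell, at 0.69 after weighting and at -2.11 in Gcg-led cells. Chga was at -0.63 and Scg2 at -0.91. Of 11 factors shared by all islet cells 0 were higher and 1, Nkx2-2, was lower. Neurod1 was at -0.54 and Rfx3 at 0.83. Of 11 Neurog3 progenitor genes 2 were higher and 2 lower, with Neurog3 itself at -0.06, and of 5 genes around Fev 1, the monoamine oxidase gene Maob, was lower at -1.27. Among 8 other peptide genes 1, Pyy, was higher and 3 lower, among them the gastrin gene Gast (-1.78) and Gip (-2.21), which encodes an incretin. For Gast the single-hormone sum held 1 cell at 10885 CPM, and at E17.5 Gast was at 2.37. With the hormone threshold at 200 CPM Gip was at 0.79.

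Genes of the unfolded protein response, which handle protein load in the endoplasmic reticulum, had 3 of 13 over 2-fold lower, 0 higher and a median of -0.86, beside 13.4% lower among all genes. The 3 were Sdf2l1, the co-chaperone gene Dnajb9 at -1.54 and Herpud1 at -1.22, and the chaperone gene Hspa5 was at -0.94 (1009 against 1946 CPM). The list median was -0.46 at E15.5, with 1 of 13 lower, and -1.43 at E17.5, with 10 of 13 lower, where 21.3% and 24.1% of all genes were lower. No polyhormonal cell of E17.5 was led by insulin. After weighting the list median was -0.32, and in Gcg-led cells it was 0.38, with 3 of 12 higher and 1 lower, beside 30.6% and 30.2% of all genes. In Ins-led cells it was -0.50, with 2 of 13 lower and 0 higher, where 35.6% of all genes were lower. In Sst-led cells it was -0.48, with 4 of 13 lower and 1 higher, where 41.5% of all genes were lower.

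Of 11 immediate early genes, which respond within minutes to stimulation or cell handling, 1 was lower, a share below the 13.4% of all genes, and the list median was -0.45. That gene was Egr1 at -1.55 (176 against 527 CPM), and Dusp1 was at -0.88. Within a leading hormone more of the list was lower: 9 of 11 in Ins-led cells (median -3.48), 6 of 11 in Gcg-led cells (median -1.08) and 6 of 11 in Sst-led cells (median -1.11), where 35.6%, 30.2% and 41.5% of all genes were lower. These comparisons were not matched for day or plate, and the Ins-led polyhormonal cells were all of E15.5, from EA02 and EA05. In EA05 alone 4 of 10 were lower (26.4% of all genes).

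The other lists were mixed, where 12.1% of all genes were higher and 13.4% lower. Of 15 measured imprinted genes 3 were higher and 1 lower, with a median of 0.32, and of 6 S phase genes 0 were higher and 2 lower, with a median of -0.73. Of 10 duct genes, which the endocrine lineage shares in part, 2 were higher and 0 lower, with a median of 0.17. The G2 and M phase, mesothelial, endothelial, immune, erythroid and neural crest lists had at most 1 measured member.

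Markers of other cell types were carried by single wells. In polyhormonal cells 3 of 25 wells held 1000 CPM or more of such markers. EA03 E4, with Gcg and Ghrl, held the mesenchyme genes Col1a1 at 2954 and Dcn at 930 CPM, EA06 G5, with Gcg and Ppy, held Spp1, a duct gene, at 12981 CPM, and EA07 G6, with Ppy and Ghrl, held acinar genes, among them Ctrb1 at 346 CPM. In single-hormone cells 3 wells held such markers, all acinar, with up to 9454 CPM of Cpa1 and 11289 CPM of Ctrb1. All 7 measured mesenchyme markers were higher and all 7 acinar markers lower in polyhormonal cells, beside 12.1% and 13.4% of all genes. The summed level of the 11 mesenchyme markers ran from 0 to 12437 CPM in polyhormonal and from 0 to 586 CPM in single-hormone cells, with a median of 0 in both. The summed level of the 13 acinar markers ran from 0 to 1433 CPM in polyhormonal and from 0 to 48602 CPM in single-hormone cells, again with a median of 0 in both, and 7 of the 13 were at 0 counts in polyhormonal cells.

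Without the highest well, the log2 ratio of Col1a1 went from 4.21 to -0.016 and that of Spp1 from 5.12 to 1.69, and without the highest single-hormone well Cpa1 went from -2.82 to 0.67. With the wells that held such markers left out in both classes, an alternative chosen after seeing the data, 22 polyhormonal cells remained, 16.2% of the hormone-positive cells, and 7 pairs were found. The list medians then were 0.48 for alpha cell factors, -0.68 for beta cell maturation and -0.79 for the unfolded protein response. Endothelial, immune, erythroid, mesothelial and neural crest marker lists reached 1000 CPM in no well of either class.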

How the data were processed

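Read counts per gene were deposited for 23002 genes and 495 cells, as whole numbers with no normalisation: 143 cells of the Neurog3 code, 157 endocrine, 66 duct and 129 of E17.5. Per the submitters' processing notes the authors used FastQC, STAR and HTSeq on mm10; versions: not given in the sources used here. Cells held 200152 to 1182889 counts (median 533363). Cell names in the table carry the knock-in word on every plate, whereas the labels give EA06 and EA07 the genotype Neurog3-Cre, Rosa-mTmG; the labels were followed. The comparison used 142 hormone-positive cells, 25 polyhormonal and 117 with 1 hormone.

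Counts were divided by the cell's total to give CPM. For each class counts were summed, scaled to CPM of the class total and compared as the log2 ratio of CPM + 5 among genes at 20 CPM or more in either class; over 2-fold counts as higher or lower. Intervals are exact binomial for shares and exact Poisson for summed counts. Genes per cell were counted after thinning to 200000 counts (seed 1). Doublets were not called. Nothing was tested between groups, because each is 1 sample.

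Named genes were the 10 furthest apart in each direction (50 CPM or more in the higher class, 10 CPM or more in 25% of its cells, same sign at both days), up to 4 per list with the largest ratio, and a set of lineage genes, of which 63 of 95 are named. The members and the 23 gene lists were chosen with earlier results of these data known. The calculation of the ratios was checked on simulated data, drawn from a shared expression profile with known changes added. The simulated cells lacked the mix of hormone classes, so the check does not bear on which genes were called. Alternatives covered the hormone threshold, wells, plates, days, scaling by edgeR 4.0.16 TMM and DESeq2 1.42.0 size factors, pseudocounts and filters. Python 3.11.15, numpy 2.4.6, pandas 2.3.3, scipy 1.17.1 and R 4.3.3 were used. Some members of the gene lists count in the list totals but are not reported here by name.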

Additional observations from a re-analysis of the deposited data

Results flagged for a closer look

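Of 23 groups of 4 to 6 polyhormonal cells examined for a cell far from the others, 6 held one. The groups were several measures of the same few cells, on skewed levels, so this number cannot be set against a rate expected by chance. In cells with Gcg and Ghrl, EA03 E4 stood apart at 12437 CPM of summed mesenchyme markers and EA06 H8 at 665 CPM of Spp1. In cells with Gcg and Ppy, EA06 G5 stood apart both at 974 CPM of summed mesenchyme markers and at 12981 CPM of Spp1. In cells with Sst and Ppy, EA05 E11 stood apart at 19980 CPM of Iapp and EA07 D2 at 511 CPM of summed mesenchyme markers.

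The wells of rows D and H of EA01 to EA03, which the comparison left out, held many hormone pairs. Of 13 hormone-positive cells among 15, 8 were polyhormonal, or 61.5% (31.6% to 86.1%), against 4 of 39 (10.3%, 2.87% to 24.2%) in the other rows of the same plates, and 4 cells held 3 hormones, which none of the 480 other cells did. These cells had 204507 to 369008 counts (median 272206) and 1546 to 4535 genes after thinning (median 3530).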

How the results depend on the processing

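Of 287 alternatives for the share, the pairs, the counts of genes and the list medians, 262 stayed within the interval around the reported value or, for counts, within 1.5 times it. Of these 262, 5 list medians near 0 changed sign, with single-hormone cells weighted (delta and epsilon factors to 0.21, Neurog3 progenitor genes to 0.08, other peptide genes to 0.05), with the mean of the cells' own CPM (delta and epsilon factors to 0.015) and without wells with other markers (duct markers to -0.13). The intervals of short lists are wide: with a pseudocount of 20 CPM the mesenchyme median was 1.76 and the acinar median went from -2.55 to -1.29, and without wells with other markers the S phase median went from -0.73 to -1.79. The share of polyhormonal cells was 31.8% at a hormone threshold of 200 CPM, 26% at 500 CPM and 7.14% at 5000 CPM, and 7.46% (10 cells) without Ppy among the hormones. The pairs were 4 at 5000 CPM, 4 without Ppy and 5 where the lower hormone had to reach 10% of the leading one. Leaving out each plate gave shares of 15.2% to 18.8% and 7 to 8 pairs. Of 8012 genes, 968 were over 2-fold higher and 1076 lower. Higher and lower genes were 555 and 595 at 200 CPM, 1537 and 2857 at 5000 CPM, 1634 and 1998 at E17.5, 1616 and 2045 in EA05 alone, and 444 and 537 with a pseudocount of 20 CPM. Lower genes were 2315 without Ppy, 1657 at E15.5 and 2056 with no filter on genes, and 4769 against 2656 among insulin-led cells with no filter, where the median of all genes moved from -0.19 to -0.49. Leaving out each plate gave 964 to 1403 higher and 1076 to 1564 lower genes. With single-hormone cells weighted to the leading hormones, the list medians were 0.17 for beta cell maturation, 0.11 for alpha cell genes and -0.32 for the unfolded protein response. The mesenchyme median of 3.40 was 4.26 with a pseudocount of 1 CPM and 3.59 with Dcn, at 0 counts in single-hormone cells, at its bound.

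Among the 45 named genes past 2-fold, 31 kept their sign throughout, which says nothing about size. The 10 genes furthest apart in each direction were chosen for the same sign at both days. The settings by day therefore could not reverse them. All alternatives drew on cells of the same data, so a kept sign is no independent support. Of 1827 alternatives for the 63 named genes, 333 were counted as moved in value and 26 as reversed in sign. At 5000 CPM Aldh3a2 went to -2.78, Lgals1 to -0.14, Tspan9 to -2.71, Spp1 to -0.11, Col1a1 to -2.42 and Dcn to -1.74, and at 2000 CPM Col1a1 to -2.31 and Dcn to -1.64. At 200 CPM Gip went to 0.79, Cpa1 to 4.17 and Ctrb1 to 2.57. Without Ppy Etv1 went to -0.11, Mboat4 to -3.06, Resp18 to -0.16 and Spp1 to -1.23. Spp1 was at -0.94 at E15.5 and Gast at 2.37 at E17.5. In EA05 alone Tspan9 was at -0.56, Mboat4 at -0.10 and Col1a1 at -0.045. After weighting Slc2a2 was at 0.17. Without the wells with other markers Col1a1 was at -0.016. Leaving out single plates or the highest cells, Col1a1 ran from -0.017 (without EA03) to 4.98 and Cpa1 from -4.18 to 0.70 (without EA02). The cause of these changes was not tested, and stricter thresholds also left fewer polyhormonal cells. No paired analysis was possible because the labels name no replicate and each group is 1 sample. For a feature seen in 0 of 25 polyhormonal cells the exact interval reaches 13.7%, so a share up to that is not excluded.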
